A study of Mus musculus with 6 samples.

Results

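The genes described here are 9 nuclear effectors and targets of the Notch pathway, followed through chromatin accessibility in skeletal stem and progenitor cells (SSPCs). They comprise the DNA-binding factor Rbpj with its co-activators Maml1 and Maml2, the transcriptional repressors Hes1, Hes5, Hey1, Hey2 and Heyl, and the feedback inhibitor Nrarp. They were chosen by name from 21853 protein-coding genes, by a rule that uses no measured value. The choice was made with earlier results of these data known. Every called peak within 1000 bp either side of a protein-coding transcription start site (TSS), in the gene body or in the 20000 bp upstream of the gene was taken. Merged over libraries, these peaks formed 59 of 63840 regions. The study measured accessibility by ATAC-seq, in which a transposase cuts and tags open DNA, and asked whether the chromatin of SSPCs changes along with their transcription during aging. Both groups were untreated C57BL/6 cells grown from the marrow of tibiae and femora and harvested at the first passage. There were 3 young libraries, from young adult mice, and 3 middle-aged libraries, from mice of about a year. The labels do not say which animals made up each library, so the p-values measure the spread between these libraries.

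When a Notch receptor is cleaved, its intracellular part enters the nucleus and joins RBPJ on DNA. A Mastermind-like protein (MAML) completes the complex and recruits acetyltransferases, whereas RBPJ without the Notch fragment can hold co-repressors at the same sites. The HES and HEY genes are the best known targets, and NRARP acts on the Notch complex to limit its output. In bone marrow, Notch activity is known to keep mesenchymal progenitors from differentiating into osteoblasts.

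The libraries differed in the number of called peaks. The young lists held 27628 to 43941 peaks and the middle-aged lists 46364 to 48344. Relative depth, the genome-wide background in extended reads per base, ran from 1.65 to 3.75 in young and from 2.40 to 2.79 in middle-aged libraries. Young 3 had both the shortest list and the lowest background. Young 1 had the highest background, but its list of 35953 peaks was shorter than every middle-aged list. As a check of the cell type label, 4 to 8 of 10 SSPC marker genes had a peak at a TSS. Kitl, Ebf3, Runx2 and Foxc1 had one in all 6 libraries, and Lepr and Prrx1 had none in any. Of 10 macrophage and blood markers, 9 or 10 had one. Csf1r had one in young 2 and young 3 alone, and the other 9 in all 6 libraries. Among all 21853 protein-coding genes, 10824 to 12675 had a TSS peak in a library. With genes lacking a peak counted at 0, the median rank of the blood markers was 48.2 to 60.0 in young and 66.6 to 71.9 in middle-aged libraries. That of the SSPC markers was 0 to 27.3 and 38.0 to 50.5. Of 10 endothelial markers, 2 to 6 had a TSS peak. Cdh5 had one in all 6 libraries, and 4 markers had none in any. The part of other cell types in the values below was not tested. In a bulk culture, more cells with an open site and a more open site in each cell cannot be told apart.

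The stretches upstream of Hes5, Hey2 and Nrarp are shown first, because these are the targets with an entry in the RefSeq promoter table and they differ in their accessibility. The Maml2 start is shown because its ranks separated the age groups. These are RefSeq promoter sequences on GRCm38 (mm10), cut at the annotated start and given 5′ to 3′ on the strand of the gene. Capitals mark TGGGAA, the core of an RBPJ site, or its reverse complement TTCCCA. In Nrarp they mark CACGTG, an E-box that HES and HEY proteins can bind. Of the 9 genes, 6 had an entry in the RefSeq promoter table.
Hes5, chr4:154960673-154960922, plus strand: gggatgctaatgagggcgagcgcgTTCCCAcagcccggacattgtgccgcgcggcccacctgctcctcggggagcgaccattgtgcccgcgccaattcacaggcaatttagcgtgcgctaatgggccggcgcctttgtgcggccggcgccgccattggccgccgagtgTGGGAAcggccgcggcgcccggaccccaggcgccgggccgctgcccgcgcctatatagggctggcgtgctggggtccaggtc
Hey2, chr10:30842802-30843033, minus strand: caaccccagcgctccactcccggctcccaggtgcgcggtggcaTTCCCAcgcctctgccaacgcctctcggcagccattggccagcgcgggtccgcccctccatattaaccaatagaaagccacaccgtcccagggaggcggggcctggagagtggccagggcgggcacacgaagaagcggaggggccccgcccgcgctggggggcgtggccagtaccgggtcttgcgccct
Nrarp, chr2:25180508-25180757, plus strand: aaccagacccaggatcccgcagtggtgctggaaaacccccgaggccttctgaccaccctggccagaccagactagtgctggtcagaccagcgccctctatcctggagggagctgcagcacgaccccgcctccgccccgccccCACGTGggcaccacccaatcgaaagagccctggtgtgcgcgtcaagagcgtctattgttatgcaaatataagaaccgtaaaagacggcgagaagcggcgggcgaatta
Maml2, chr9:13662210-13662459, plus strand: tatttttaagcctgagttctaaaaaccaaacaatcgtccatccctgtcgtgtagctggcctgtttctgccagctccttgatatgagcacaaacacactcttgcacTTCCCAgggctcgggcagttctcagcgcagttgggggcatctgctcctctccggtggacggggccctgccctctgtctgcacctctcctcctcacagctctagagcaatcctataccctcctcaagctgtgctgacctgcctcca

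A TSS peak was called for the same 7 genes in every library, and the HES and HEY targets spanned the whole range from the strongest peaks to none. Hes1, Hey1, Hey2, Rbpj, Nrarp, Maml1 and Maml2 had a peak in all 6 libraries, as did 48.4% of protein-coding genes. Heyl had none in any library, as did 38.5% of genes. Hes5 had one in middle-aged 3 alone. The number of members with a TSS peak was thus 7 in each young library, and it was 7, 7 and 8 in middle-aged 1, 2 and 3. Peak strength is given below as a percentile rank, the share of peaks in the same list with an equal or lower −log10 q, so that 100 is the strongest peak.

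Rbpj, which carries the complex on DNA, had its peak over a cluster of starts between chr5:53590214 and chr5:53590471, at chr5:53590074-53590828. Its rank was 86.1, 92.1 and 90.3 in young 1, 2 and 3, against 90.7, 92.7 and 92.2 in middle-aged 1, 2 and 3. Young 1 was the lowest library, and the groups overlapped. Means of 89.5 ± 3.09 and 91.9 ± 1.02 (SD, n = 3 each) were obtained (two-sided exact permutation p = 0.2). The more upstream coding starts of Rbpj, at chr5:53466152 and chr5:53555834, had no peak within 1000 bp in any library. A weaker peak within 1000 bp of the cluster, at chr5:53588917-53589561, had ranks that did not overlap between the groups. It is described below with the regions.

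Maml1, a co-activator of the complex, had a strong peak at chr11:50291979-50292732 in every library. It ranked 92.3, 94.5 and 92.1 in young 1, 2 and 3, against 95.6, 92.6 and 94.3 in middle-aged 1, 2 and 3. These values overlapped, with means of 93.0 ± 1.32 (SD, n = 3) and 94.2 ± 1.53 (SD, n = 3; two-sided exact permutation p = 0.3).

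Maml2, its paralog, was the only member whose best TSS peak had ranks that did not overlap between the age groups. The peak lay at chr9:13661772-13662743, over the most downstream of its 3 coding starts. It ranked 47.3, 52.3 and 50.9 in young 1, 2 and 3, against 71.0, 56.0 and 70.4 in middle-aged 1, 2 and 3. Middle-aged 2 was closer to the young libraries than to the other middle-aged ones. The means were 50.2 ± 2.59 (SD, n = 3) and 65.8 ± 8.48 (SD, n = 3), a difference of 15.6 points. The exact permutation test gave a two-sided p = 0.1, the smallest that 3 against 3 libraries allow. When all lists were cut to 27628 peaks, the length of the shortest, the difference was 6.16 points and the groups overlapped (two-sided exact permutation p = 0.7). In another setting, pileups were scaled to the lowest background and peaks then below a −log10 p of 4.05 were dropped. There the difference was 17.6 points and the groups stayed apart (two-sided exact permutation p = 0.1). Ranked only among the genes with a TSS peak in all 6 libraries, Maml2 differed by 0.177 points (two-sided exact permutation p = 1).

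The most upstream start of Maml2, at chr9:13297957, had no peak within 1000 bp, but a strong region at chr9:13296304-13296844 ended just beyond that distance. This region ranked 92.9, 89.8 and 91.1 in young 1, 2 and 3, against 85.9, 92.9 and 88.7 in middle-aged 1, 2 and 3. With a window of 2000 bp it became the TSS peak of Maml2, and the difference turned to -2.15 points (two-sided exact permutation p = 0.4). With this window the change in log2 fold enrichment of Maml2, middle-aged minus young by limma, was -0.33 ± 0.13 (SE), with an unadjusted p of 0.020 and an adjusted p of 0.605. Whether the 2 starts differed from each other was not tested.

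Hes1, a repressor induced in most tissues with Notch activity, had 2 peaks near its coding start at chr16:30065340. The stronger one, at chr16:30063434-30064463, covered the start of a non-coding Hes1 transcript. It ranked 61.9, 59.1 and 49.5 in young 1, 2 and 3, against 57.9, 63.9 and 70.0 in middle-aged 1, 2 and 3. The groups overlapped, with means of 56.8 ± 6.48 (SD, n = 3) and 63.9 ± 6.07 (SD, n = 3; two-sided exact permutation p = 0.3). The weaker one, at chr16:30065048-30065388, covered the coding start as a region merged over libraries. Its called peak did so in 3 of the 6 libraries. Its ranks were 29.1, 49.4 and 28.2 in young 1, 2 and 3, against 56.3, 49.0 and 60.4 in middle-aged 1, 2 and 3. Young 2 fell among the middle-aged libraries, and the difference of 19.7 points did not reach the smallest p of the design (two-sided exact permutation p = 0.2). It was 5.21 points with equally long lists.

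Hey1, which can form dimers with HES proteins, had a peak at chr3:8666968-8667830. The ranks were 87.5, 87.8 and 78.7 in young 1, 2 and 3, against 86.8, 91.4 and 87.0 in middle-aged 1, 2 and 3. Only young 3 stood lower than the rest. The means of 84.7 ± 5.21 (SD, n = 3) and 88.4 ± 2.57 (SD, n = 3) differed by less than the spread of the young libraries (two-sided exact permutation p = 0.6).

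Hey2, its close relative, had the strongest TSS peak of the 9 genes. The peak at chr10:30842605-30843287 ranked 98.3, 98.4 and 96.8 in young 1, 2 and 3, against 98.4, 97.9 and 97.5 in middle-aged 1, 2 and 3. All libraries lay within a narrow band near the top of their lists. The means were 97.8 ± 0.878 (SD, n = 3) and 97.9 ± 0.476 (SD, n = 3; two-sided exact permutation p = 0.8). Its fold enrichment over the local background was 16.9, 19.0 and 15.9 in young 1, 2 and 3, against 20.2, 20.1 and 19.0 in middle-aged 1, 2 and 3. As deposited, this is a log2 change of 0.20, below the median of 0.24 over all genes with a TSS peak in all libraries.

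Hes5, the target shown above with 2 RBPJ cores, stood at the other end. Its only TSS peak, at chr4:154961383-154961590 in middle-aged 3, ranked 5.57 in that list and lay over the coding sequence, where the annotated gene Gm20421 overlaps Hes5. At a −log10 q of at least 5 it was no longer called. Heyl had no TSS peak but a peak in an intron at chr4:123239531-123239849 in 5 libraries. It ranked 43.8 and 20.5 in young 1 and 2, against 47.6, 11.8 and 1.8 in middle-aged 1, 2 and 3.

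Nrarp, the feedback inhibitor, had 1 peak in every library, at chr2:25180419-25180948. It ranked 43.8, 57.7 and 24.8 in young 1, 2 and 3, against 63.2, 47.1 and 37.5 in middle-aged 1, 2 and 3. This was the widest spread among the 7 genes, and neither group lay apart. The means were 42.1 ± 16.5 (SD, n = 3) and 49.3 ± 13.0 (SD, n = 3; two-sided exact permutation p = 0.6). Without young 3 the difference of 7.14 points turned to -1.52.

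**Figure D1:**
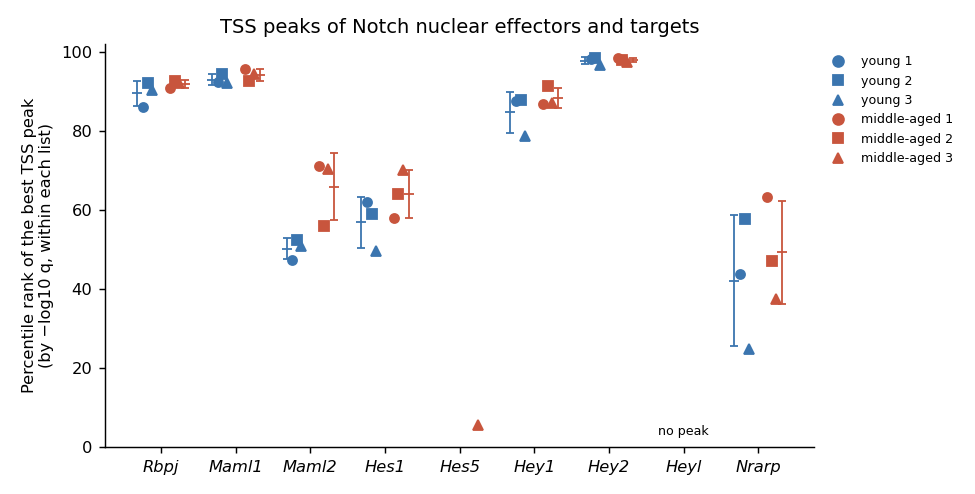
Percentile rank of the best TSS peak (vertical axis, 0 to 100, by −log10 q within each list) for the 9 genes (horizontal axis). Points are libraries, blue for young and red for middle-aged, and bars give the mean ± SD of 3 libraries. Maml2 is the gene whose groups separate, Hey2 sits between 96.8 and 98.4 in all libraries, Hes5 has 1 point at 5.57 and Heyl has none.

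The order of the levels was Hey2, Maml1, Rbpj, Hey1, Hes1, Maml2 and Nrarp by mean rank over the 6 libraries. Hey2 was above Maml1 in 6 of 6 libraries and Hey1 above Hes1 in 6 of 6. Maml1 was above Rbpj in 5 libraries and Rbpj above Hey1 in 5. Hes1 and Maml2 could not be ordered, since each was higher in 3 libraries. Maml2 was above Nrarp in 5.

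Against the whole table, the members did not stand out. Of the 7 genes, 1 had ranks that were all higher in middle-aged libraries, against 30.6% of the 10569 genes with a TSS peak in all 6 libraries. No member had ranks that were all lower, against 0.274%. Without middle-aged 1 or without young 2, 3 members were higher. Fewer libraries separate more readily, and the share of all genes is not given for these settings. All 7 mean differences were positive, as were those of 93.9% of all genes. The median difference was 3.72 points for the members and 4.97 for all genes. A rank within a list moves with the number of weak peaks that the list holds. Ranked only among the 10569 shared genes, 1 of 7 members was higher in middle-aged libraries, against 49.7% of all genes, and the median difference was -2.99 points against -0.0237. On that scale no member separated the groups, where 5.86% of genes were higher and 6.05% lower. When lists were equally long no member did either, beside 9.51% of genes higher and 3.71% lower.

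**Figure D2:**
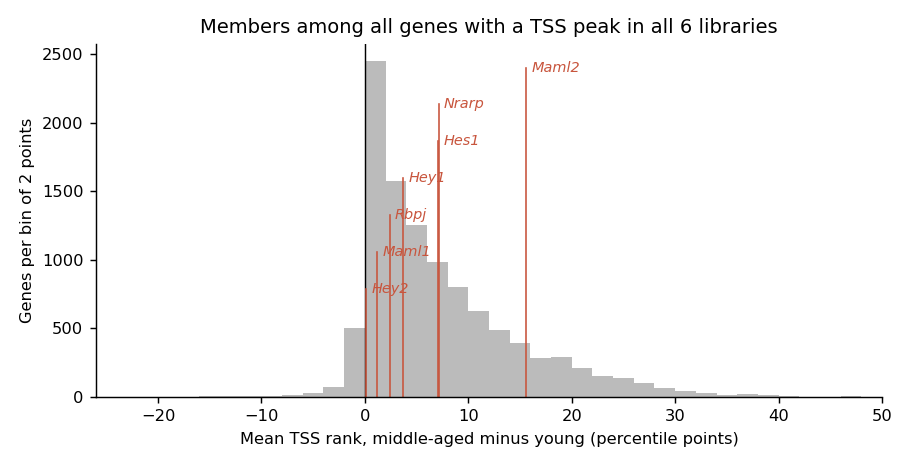
Distribution of the difference in mean TSS rank, middle-aged minus young in percentile points, over the 10569 genes with a TSS peak in all 6 libraries (grey bars, genes per bin of 2 points). Red lines mark the 7 members, from Hey2 at 0.127 to Maml2 at 15.6; their heights have no meaning. The members lie within the bulk of the genes, most of which are right of 0.

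Fold enrichment gave no call. In limma on quantile-normalized log2 fold enrichment, 0 of 10569 genes passed an adjusted p of 0.05 (0% higher and 0% lower), while 817 had an unadjusted p under 0.05, none of them a member. The change was -0.21 ± 0.16 (log2, SE) for Hes1, -0.18 ± 0.13 for Rbpj, -0.14 ± 0.16 for Nrarp and -0.12 ± 0.13 for Hey1. It was -0.06 ± 0.09 for Maml1, -0.0037 ± 0.16 for Maml2 and 0.012 ± 0.064 for Hey2. The adjusted p-values of the members ran from 0.745 to 0.998 (limma, Benjamini-Hochberg over all genes). Without normalization the median of all genes shifted by 0.24 on the log2 scale, and the 6 members below 0 were then above 0.

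Beyond the start sites, Maml2 also had more called peaks in the middle-aged lists. Its body and upstream stretch held 14, 17 and 11 peaks in young 1, 2 and 3, against 19, 19 and 20 in middle-aged 1, 2 and 3. Every middle-aged library had more than every young one. The means were 14 ± 3 (SD, n = 3) and 19.3 ± 0.577 (SD, n = 3; two-sided exact permutation p = 0.1), a ratio of 1.38. The ratio for all peaks of the lists was 1.32. With equally long lists the Maml2 means were equal, with a difference of 0. With pileups scaled to the lowest background the difference was 6 peaks (two-sided exact permutation p = 0.1).

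Rbpj, the other long gene, held 9, 12 and 8 peaks in young 1, 2 and 3, against 9, 10 and 12 in middle-aged 1, 2 and 3. These counts overlapped (two-sided exact permutation p = 0.8), and the small excess of middle-aged libraries turned to -0.167 peaks without young 3 or without middle-aged 3. Maml1 had 1, 2 and 1 peaks in young and 2, 3 and 3 in middle-aged libraries (two-sided exact permutation p = 0.2). The other 6 genes had 0 to 4 peaks per library.

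Of the 9 members, 1 had locus counts that were all higher in middle-aged libraries, against 6.6% of 16870 genes with any peak in their locus. None was all lower, against 0.0948%. The count of higher members was 2 without middle-aged 1 or without young 2, where the share of all genes is not given. Summed over members, the loci held 33, 40 and 26 peaks in young 1, 2 and 3, against 41, 41 and 45 in middle-aged 1, 2 and 3. With equally long lists 0 members were higher and 0 lower, beside 1.08% and 0.76% of genes. The ratio of the means, 1.28, was close to the 1.32 of all peaks.

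**Figure D3:**
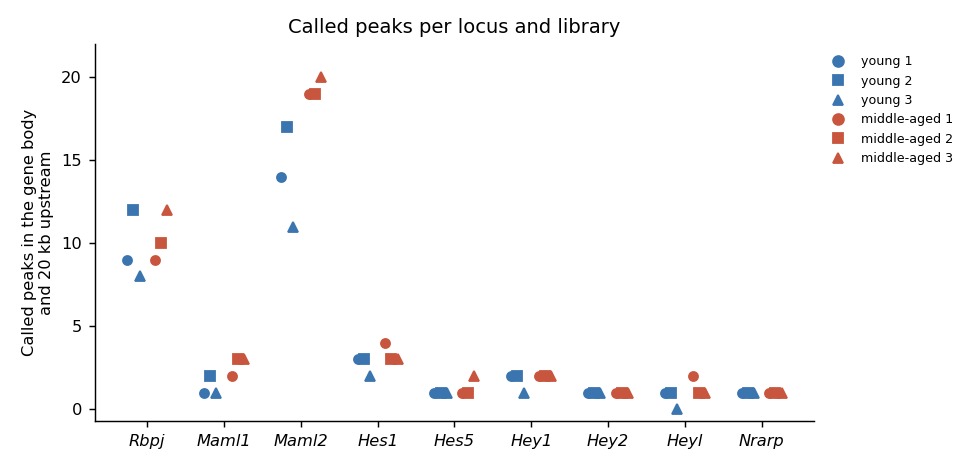
Number of called peaks in the gene body and 20000 bp upstream (vertical axis) for each gene (horizontal axis) and library (blue for young, red for middle-aged). Maml2 has 11 to 17 peaks in young and 19 or 20 in middle-aged libraries, and Rbpj overlaps at 8 to 12.

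Of the 59 regions, 24 were called in all 6 libraries, against 35.1% of all regions, and 18 in 1 library, against 23%. By position, 39 lay in introns and 10 upstream. Maml2 had 29 regions and Rbpj 14, so most of the distal values come from these genes.

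A single region was called in all middle-aged libraries and in no young one, against 2.21% of all regions. It lay in a Maml2 intron at chr9:13323645-13323984 and ranked 6.0, 3.1 and 26.2 in middle-aged 1, 2 and 3. Thus it was among the weakest peaks of at least 2 of these lists, and it was lost at a −log10 q of at least 5. Regions specific to middle-aged libraries numbered 3 without middle-aged 1 and 2 without young 2, where the share of all regions is not given. No member region was called in all young libraries alone, against 0.036% of all regions. With equally long lists no member region was specific to either age, against 0.559% for middle-aged and 0.454% for young libraries.

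In 5 regions called in all 6 libraries, every middle-aged rank was above every young rank, against 24.3% of such regions. None had the reverse, against 0.495%. The number of higher regions was 8 without middle-aged 1, 10 without middle-aged 2, 8 without young 1 and 9 without young 2, and 1 region was lower without middle-aged 2. Groups separate more readily with a library left out. The share of all regions is not given for these settings, so the counts cannot be read as a result about the members. The largest difference was in a Maml2 intron at chr9:13443547-13443926. It ranked 52.8, 59.6 and 24.8 in young 1, 2 and 3, against 74.9, 75.2 and 74.3 in middle-aged 1, 2 and 3. The middle-aged libraries were nearly identical and the young ones spread widely. The difference was 29.1 points (two-sided exact permutation p = 0.1). It was 23.9 points with equally long lists, and the groups still did not overlap.

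Next came an Rbpj region at chr5:53451827-53452159, upstream of the gene. It ranked 12.6, 48.5 and 20.9 in young 1, 2 and 3, against 51.1, 54.6 and 61.6 in middle-aged 1, 2 and 3. Young 2 lay just under the middle-aged libraries, and the difference was 28.5 points (two-sided exact permutation p = 0.1). With equally long lists the region was not called in young 1. Another pair of Rbpj regions had smaller differences. One, in an intron at chr5:53546882-53547368, had a mean rank of 47.9 ± 6.38 in young and 57.7 ± 1.29 in middle-aged libraries, 9.80 points apart (SD, n = 3 each; two-sided exact permutation p = 0.1). The other, at chr5:53588917-53589561 beside the TSS cluster, went from 80.2 ± 0.724 to 88.2 ± 2.41 (SD, n = 3 each; two-sided exact permutation p = 0.1). With equally long lists the intron region of this pair differed by -4.93 points and the one beside the TSS cluster by 5.38. The groups then overlapped in both. The fifth region was the Maml2 TSS peak described above.

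Several strong regions overlapped between the ages. A Maml2 intron region at chr9:13587001-13587586 ranked 90.6, 94.7 and 91.6 in young 1, 2 and 3, against 94.6, 91.4 and 90.7 in middle-aged 1, 2 and 3. An Rbpj intron region at chr5:53509222-53509935 ranked 86.5, 79.2 and 76.8 in young 1, 2 and 3, against 89.5, 88.2 and 84.3 in middle-aged 1, 2 and 3. Hes5, with no TSS peak in 5 libraries, had a region in all 6 at -16464 bp from its start, at chr4:154944261-154944638. It ranked 77.6, 71.7 and 24.8 in young 1, 2 and 3, against 78.6, 71.8 and 80.7 in middle-aged 1, 2 and 3, so that young 3 alone stood apart. Hey1 had a region over its coding sequence at chr3:8664538-8664887 in every library but young 3.

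Ranked only among the 22403 regions shared by all libraries, separated regions were as many in each direction. Of the 24 member regions, 1 was higher in all middle-aged libraries, against 6.56% of shared regions, and 1 was lower, against 6.53%. The higher one was the Maml2 intron region at chr9:13443547-13443926. The lower one was an Rbpj intron region at chr5:53490567-53491240, with ranks of 44.3, 50.4 and 47.2 in young 1, 2 and 3, against 41.6, 26.6 and 38.6 in middle-aged 1, 2 and 3. Equally long lists gave the same 2 regions, beside 6.97% of regions higher and 6.2% lower. On this scale 8 of 24 member regions had a higher mean rank in middle-aged libraries, against 50.7% of all shared regions, and the median difference was -1.19 points beside 0.0744. Within whole lists 21 of 24 were higher, against 88.9%, with a median difference of 6.82 points beside 6.74 for all shared regions.

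**Figure D4:**
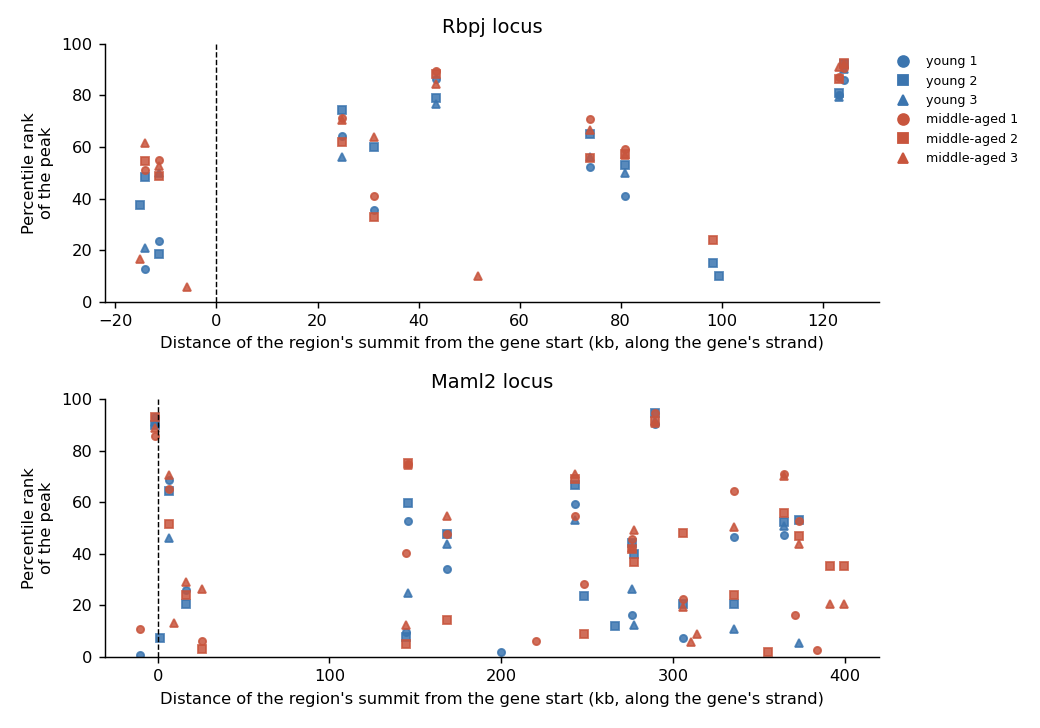
Percentile rank of the peak in each region (vertical axis) against the distance of the region from the gene start in kilobases (horizontal axis, dashed line at the start) for Rbpj and Maml2. Points are libraries, blue for young and red for middle-aged. The strongest regions of both genes hold points of both colors, and the Maml2 region with ranks near 75 in the 3 middle-aged libraries stands above its young points of 24.8 to 59.6.

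The distal regions that carry these comparisons are shown on the plus strand of GRCm38, as up to 300 bases around the summit. Capitals mark the RBPJ core, TGANTCA (the site of AP-1 factors) and TGTGGT (the site of RUNX factors) or their reverse complements.
Maml2 intron, called in middle-aged libraries alone, chr9:13323671-13323970: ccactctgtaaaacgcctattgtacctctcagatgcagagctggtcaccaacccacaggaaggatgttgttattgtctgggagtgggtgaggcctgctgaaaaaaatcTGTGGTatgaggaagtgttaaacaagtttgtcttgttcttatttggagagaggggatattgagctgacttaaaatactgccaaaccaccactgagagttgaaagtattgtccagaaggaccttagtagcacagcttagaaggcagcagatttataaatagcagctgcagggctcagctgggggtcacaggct
Maml2 intron, higher in middle-aged libraries, chr9:13443566-13443865: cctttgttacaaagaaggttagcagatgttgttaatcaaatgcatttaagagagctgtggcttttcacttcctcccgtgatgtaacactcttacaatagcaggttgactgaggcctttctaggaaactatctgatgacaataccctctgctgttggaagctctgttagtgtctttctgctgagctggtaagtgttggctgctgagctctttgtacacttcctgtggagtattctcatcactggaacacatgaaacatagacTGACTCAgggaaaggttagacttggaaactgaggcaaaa
Rbpj intron, lower in middle-aged libraries among shared regions, chr5:53490790-53491089: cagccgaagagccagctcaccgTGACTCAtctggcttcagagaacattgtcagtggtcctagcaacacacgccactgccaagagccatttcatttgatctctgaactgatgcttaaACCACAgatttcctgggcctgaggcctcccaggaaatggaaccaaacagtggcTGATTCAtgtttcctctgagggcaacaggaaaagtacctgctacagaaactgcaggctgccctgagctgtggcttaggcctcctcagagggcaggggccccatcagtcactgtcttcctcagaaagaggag
Hes5 upstream region, called in all libraries, chr4:154944310-154944609: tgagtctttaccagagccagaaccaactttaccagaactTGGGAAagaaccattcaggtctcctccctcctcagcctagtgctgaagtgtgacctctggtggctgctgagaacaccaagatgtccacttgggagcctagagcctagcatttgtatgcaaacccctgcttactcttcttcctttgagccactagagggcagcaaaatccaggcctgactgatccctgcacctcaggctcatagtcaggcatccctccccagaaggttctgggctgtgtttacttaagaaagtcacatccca

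Matches to RBPJ sites were counted in 300 bases around each summit, on both strands. The core TGGGAA was in 23 of 59 member regions, 39.0%, and in 27.3% of all regions. The longer GTGGGAA, which contains the core, was in 7 member regions, 11.9%, and in 7.07% of all regions. Paired RBPJ sites, TGNGAA followed after 15 to 17 bases by TTCNCA, let Notch complexes bind side by side. One member region held such a pair, and 0.186% of all regions did. It was the peak at the Hes1 coding start, with the site at chr16:30065260-30065287, a spacer of 16 bases and its first base at -80 bp from the start.

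Hes5 and Hey2, without and with a strong TSS peak, held equal numbers of one motif. Each RefSeq promoter, of 300 bases, had 2 matches to GTGGGAA, found in 6.38% of all promoters. In Hey2 one of these lies downstream of the annotated start and is not printed. Nrarp held no TGGGAA in this window, and its CACGTG was shared with 7.15% of promoters. TGGGAA was in 5 of 8 member promoters and in 25.6% of all promoters. The 8 promoters belong to 6 genes. The Rbpj windows among them overlap and share a match, so the same site counts for more than 1 promoter. CACGTG was in 3 member regions and in 5.84% of all regions, and CACGCG in 5 and in 6.31%. TGANTCA was in 7 member regions, 11.9%, and in 19.1% of all regions. TGTGGT was in 11 member regions, 18.6%, and in 27.3% of all regions.

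The rest of the pathway is given for context, by TSS rank within whole lists. Of 17 RBPJ co-regulators, 15 had a TSS peak in all libraries, beside 48.4% of all genes. Ranks were all higher in middle-aged libraries for 7, beside the 30.6% of all genes. Among these 7, Tle3, a Groucho co-repressor, had the largest difference, from 47.3 ± 15.4 to 73.6 ± 2.64 (SD, n = 3 each; two-sided exact permutation p = 0.1). Ncor1, a scaffold for histone deacetylases, went from 71.6 ± 2.17 to 79.1 ± 3.06 (SD, n = 3 each; two-sided exact permutation p = 0.1).

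Among 9 genes of γ-secretase and the ADAM proteases, which cut the receptors, all had a TSS peak in every library, beside 48.4% of all genes. Their median difference was 4.08 points, against 4.97 for all genes. Of the 9, 3 had ranks that were all higher, beside 30.6% of all genes. These were the γ-secretase subunits Ncstn, Psenen and Psen2, with differences of 9.75, 9.22 and 8.39 points (two-sided exact permutation p = 0.1 each). Of 9 receptors and ligands, 3 had a TSS peak in all libraries and 5 in none, beside 48.4% and 38.5% of all genes. Ranks were all higher for 1 of them. This gene, the receptor Notch2, went from 75.1 ± 3.45 to 83.0 ± 3.15 (SD, n = 3 each; two-sided exact permutation p = 0.1). Of 7 other HES-related repressors, 3 had a peak in all libraries, 4 in none, and 0 separated the groups. No gene of these lists had ranks that were all lower.

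By distance over the 6 TSS ranks, the genes closest to Hes1 among 10568 were Lipt1 at 6.95 points, Neurl2 and Ctsa at 7.33, Rab27a at 8.27 and Eya1 at 8.54. Neurl2 and Ctsa had equal ranks in every library.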

How the data were processed

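ATAC-seq peak lists of 3 young and 3 middle-aged libraries were analysed. Per the methods, the authors used bcl2fastq for base calls, Bowtie2 for alignment to mm10, Sambamba against duplicates and MACS for the peaks of each library. A shift of reads for the transposase is not given in the sources used here. The authors deposited for each peak a score, a fold enrichment (a linear ratio over local background), a −log10 p and a −log10 q. Their DiffBind comparison needs reads and was not repeated. Read numbers were not used here, and relative depth was solved from fold and −log10 p (whole pileups for at least 99.96% of peaks, tolerance 0.001).

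Peaks were matched with GENCODE TSSs of mm10 (54361 sites). A TSS peak overlapped the window by at least 1 bp, and the highest-ranked one was used. Peaks that overlapped between libraries were joined into regions. Group means were compared by the exact permutation test over 20 assignments, whose smallest two-sided p is 0.1. Log2 fold enrichment was quantile-normalized and fitted with limma 3.58.1 (R 4.3.3, trend, Benjamini-Hochberg), tested on simulated data, as were the peak functions (Python 3.11.15). Named were all members, up to 6 other pathway genes and 12 regions by size of difference or mean rank, age-specific regions, and 5 genes nearest to Hes1. The members and lists were chosen with earlier results of these data known.

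The labels state no pairing of libraries by replicate number, and none was seen, so the main tests treated libraries as unpaired.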

Additional observations from a re-analysis of the deposited data

How the results depend on the processing

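The design cannot give a p under 0.1, and list length limits ranks. Leaving out 1 library at a time gave rank differences of -0.38 to 0.403 for Hey2, -1.52 to 14.9 for Nrarp and 13.0 to 20.5 for Maml2. It gave 1 to 3 members with higher TSS ranks, 1 to 2 with higher locus counts, 1 to 3 regions specific to middle-aged libraries, 6 to 10 higher and 0 to 1 lower regions, -0.167 to 1.83 peaks for Rbpj and 0 to 1 genes called by limma. Log2 fold changes then ran from -0.0027 to 0.0342 for Hey2 and from -0.0763 to 0.125 for Maml2. Shares of all genes or regions are not given beside the counts of members and regions with 1 library left out.

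With equally long lists the rank differences were -6.36 for Hes1, -0.850 for Hey1, -0.849 for Hey2, -0.371 for Rbpj and -1.04 for Maml1. Members with higher TSS ranks, with higher locus counts and regions specific to middle-aged libraries were then 0 each, with 1 higher and 1 lower region, and the mean number of members with a TSS peak differed by -0.333. Ranked among shared genes, chosen after the data were seen, the differences were -5.65 for Hes1, -4.13 for Hey1, -2.50 for Hey2, -2.50 for Rbpj, -2.99 for Nrarp and -3.14 for Maml1, with 0 members higher; shared regions gave 1 higher and 1 lower. A window of 2000 bp gave -2.15 for Maml2 and 0 members higher, and the log2 change of Maml2 was then -0.33 (limma, unadjusted p = 0.020, adjusted p = 0.605), so that 1 member had an unadjusted p under 0.05. Ranking by fold enrichment gave 0, and by summit over background 2. At a −log10 q of at least 5, locus counts and specific regions gave 0 each, and the log2 change of Maml2 was 0.00042. For the window of 2000 bp, these 2 rankings and this cutoff, the shares of all genes or regions are not given. Their counts therefore cannot be read as a result about the members.

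As deposited, log2 fold changes were 0.17 for Maml1, 0.027 for Hes1, 0.11 for Nrarp, 0.16 for Hey1, 0.10 for Rbpj and 0.28 for Maml2, with 1 gene called, which is no member. Median centring gave -0.070 for Hey2 and 0.0081 for Maml2. Deviations of equally numbered libraries correlated at 0.00276, -0.00309 and -0.0414 over shared regions. Those of unequally numbered libraries correlated at -0.0294 to 0.0331. No pairing by number was seen, but whether such libraries were prepared together cannot be told from these values. A fit with the replicate block called 0 genes, and for Maml2 the paired exact permutation p was 0.25, the smallest that 3 pairs allow. The causes of these changes were not tested.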
